A study of Mus musculus with 16 samples.

Results

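The odorant receptor genes numbered Olfr1417 to Olfr1505 form a cluster on mouse chromosome 19, and 58 of them had a probe set on the array. Members were all probe sets whose annotated symbol is exactly Olfr followed by a number in that range, without the suffix that marks a pseudogene. They are 58 of the 1080 odorant receptor probe sets and of 22206 tested probe sets in all. The annotation placed all 58 on chromosome 19 and gave them 8 receptor families by their MOR names, an older naming of mouse odorant receptors by sequence family. MOR202 held 30 members, MOR266 held 8, MOR239 held 6, MOR214 and MOR212 held 4 each, MOR211 held 3, MOR215 held 2 and MOR127 held 1. Between the members lie 28 pseudogene entries and 5 protein-coding receptors with numbers outside the range, 3 of them on the array.

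All animals carried the S100a5-tauGFP reporter, in which the promoter of an activity-dependent gene of olfactory sensory neurons drives a green fluorescent protein, so GFP marks neurons by their activity and not by their receptor. Cells of dissociated olfactory mucosa from mice of both sexes, 7 to 12 weeks old, were sorted by fluorescence into a positive (GFP+) and a negative (GFP-) fraction, and each sample came from a pool of 3 mice. The 4 groups of 4 arrays were GFP+ and GFP- cells of pools given the odor 1-pentanethiol, a small thiol, and GFP+ and GFP- cells of pools given filtered air as vehicle. The sample labels and the series title name 1-pentanethiol whereas the design text names bourgeonal, and the labels were followed. Each of the 8 pools gave both fractions, and the comparison asks which receptors become enriched in GFP+ cells when the odor is present.

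Odorant receptors are G protein-coupled receptors on the cilia of olfactory sensory neurons, where odor binding activates adenylyl cyclase and opens a cyclic nucleotide-gated channel. A mature neuron expresses mainly a single receptor gene from a single allele, so a receptor's transcript in sorted tissue stands for the neurons that chose it. Receptor genes lie in clusters, and their promoters and enhancers commonly carry homeodomain sites read by Lhx2 and sites for early B-cell factors. Only the homeodomain type is marked in the sequences here.

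Sequence upstream of the annotated start is shown for members whose annotated start is no ATG. For the other members with a window the annotated start is the ATG itself, and the window before it need not be a promoter. Whether transcription begins at the starts used here was not examined, so the windows shown need not be promoters either. RefSeq windows on GRCm38.p6 existed for 55 of the 58 members, and for 47 of them the annotated start was an ATG. Of the 8 whose annotated start was no ATG, 5 were lower in GFP+ cells of both sorts and 2 were higher in both. Over all 58 members 22 were lower and 17 were higher in both sorts. Whether the kind of start or a motif goes with the direction was not tested. All 8 windows follow, each 250 bases long, 5′ to 3′ on the gene's strand and ending just before the annotated start. Capitals mark the homeodomain-type motifs TAATGA and TAATTA on either strand, so that TCATTA is TAATGA read from the other strand. The windows of the 5 lower members are given first. Olfr1426 spans chr19:12091848-12092097 on the minus strand, Olfr1434 chr19:12279604-12279853 on the plus strand, Olfr1437 chr19:12325067-12325316 on the minus strand, Olfr1442 chr19:12673929-12674178 on the plus strand and Olfr1477 chr19:13500296-13500545 on the plus strand. Of the higher members, Olfr1419 spans chr19:11871306-11871555 on the minus strand and Olfr1443 chr19:12677916-12678165 on the plus strand. Olfr1496, which passed in neither sort, spans chr19:13780298-13780547 on the plus strand.
Olfr1426: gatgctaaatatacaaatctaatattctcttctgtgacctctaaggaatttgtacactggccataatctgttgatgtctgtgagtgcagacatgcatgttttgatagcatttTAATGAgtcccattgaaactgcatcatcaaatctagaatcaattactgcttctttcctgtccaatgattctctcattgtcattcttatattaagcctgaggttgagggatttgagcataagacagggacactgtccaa
Olfr1434: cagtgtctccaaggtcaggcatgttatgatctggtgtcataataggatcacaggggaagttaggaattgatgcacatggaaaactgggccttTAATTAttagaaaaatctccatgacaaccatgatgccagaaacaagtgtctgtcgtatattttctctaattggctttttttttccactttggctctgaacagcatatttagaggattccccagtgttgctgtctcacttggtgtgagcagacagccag
Olfr1437: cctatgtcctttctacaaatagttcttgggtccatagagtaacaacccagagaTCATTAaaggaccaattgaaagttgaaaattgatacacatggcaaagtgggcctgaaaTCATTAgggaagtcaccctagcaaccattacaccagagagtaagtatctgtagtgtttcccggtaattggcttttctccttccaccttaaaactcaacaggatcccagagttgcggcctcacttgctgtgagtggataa
Olfr1442: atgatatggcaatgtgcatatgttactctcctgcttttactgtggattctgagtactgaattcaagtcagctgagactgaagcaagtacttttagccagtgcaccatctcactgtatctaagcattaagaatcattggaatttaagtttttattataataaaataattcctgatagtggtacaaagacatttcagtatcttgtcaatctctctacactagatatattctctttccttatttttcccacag
Olfr1477: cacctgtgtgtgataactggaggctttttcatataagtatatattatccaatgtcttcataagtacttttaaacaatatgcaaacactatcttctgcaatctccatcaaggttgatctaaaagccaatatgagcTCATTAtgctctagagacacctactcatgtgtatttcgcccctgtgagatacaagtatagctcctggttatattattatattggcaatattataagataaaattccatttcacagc
Olfr1419: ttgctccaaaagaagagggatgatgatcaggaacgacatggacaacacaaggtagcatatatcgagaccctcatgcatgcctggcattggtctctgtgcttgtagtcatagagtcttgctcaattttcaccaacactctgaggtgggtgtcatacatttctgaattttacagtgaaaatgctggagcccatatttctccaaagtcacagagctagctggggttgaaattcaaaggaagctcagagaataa
Olfr1443: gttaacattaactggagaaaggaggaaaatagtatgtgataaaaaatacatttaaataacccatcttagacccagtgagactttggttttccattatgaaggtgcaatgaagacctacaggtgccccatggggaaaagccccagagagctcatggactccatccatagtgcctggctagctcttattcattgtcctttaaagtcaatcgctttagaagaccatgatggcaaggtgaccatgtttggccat
Olfr1496: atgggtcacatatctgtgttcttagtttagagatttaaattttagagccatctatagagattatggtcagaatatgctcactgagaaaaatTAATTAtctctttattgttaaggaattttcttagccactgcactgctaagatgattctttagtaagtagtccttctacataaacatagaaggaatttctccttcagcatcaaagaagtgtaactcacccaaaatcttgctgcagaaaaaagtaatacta

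The Olfr1437 window holds TAATGA at 2 places, those of Olfr1426 and Olfr1477 at 1, and those of Olfr1434 and Olfr1496 hold TAATTA at 1. Neither string is in the windows of Olfr1442, which was lower, or of Olfr1419 and Olfr1443, which were higher. At least 1 of the strings was thus in 5 of these 8 windows, beside 43.6% of 259 receptor windows whose annotated start is no ATG. TAATGA was found in 30.9% of the 55 member windows, in 25.3% of 944 odorant receptor windows and in 8.59% of all 32851 windows of that length. TAATTA was found in 21.8% of member windows, 18.1% of receptor windows and 4.84% of all windows. Among members whose annotated start is the ATG, whose windows need not be promoters, some windows were alike. Those of Olfr1501 and Olfr1504 shared 94.7% of the 150 bases nearest the start and 72.8% of all 250, position by position without gaps, and both receptors were higher in GFP+ cells of both sorts. Those of Olfr1463 and Olfr1466 shared 82% of the same stretch and 75.6% of all 250 bases, against a median of 28% over the 1081 pairs of such members. Olfr1463 was higher in GFP+ cells of both sorts, and Olfr1466 passed in neither. These pairs were picked after their values were seen.

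Signals are log2 values, differences are on the log2 scale with ± SE from limma, and adjusted p-values are limma's over all 22206 probe sets, with 0.05 as the threshold. Array medians were 7.40 to 7.45 in odor GFP+ cells, 7.71 to 7.78 in odor GFP- cells, 7.38 to 7.44 in vehicle GFP+ cells and 7.74 to 7.78 in vehicle GFP- cells. The GFP+ array of vehicle replicate 2 stood apart, as its negative controls had a median of 7.28 and those of the remaining 3 vehicle GFP+ arrays had medians of 6.22 to 6.38. S100a5 itself was higher in GFP+ cells, by 0.99 ± 0.12 in odor pools (adjusted p = 7.79e-06) and 0.87 ± 0.12 in vehicle pools (adjusted p = 3.51e-05). Omp, a marker of mature olfactory neurons, did not pass (0.03 ± 0.10 in odor and 0.05 ± 0.10 in vehicle pools), though with array medians set equal it was higher, by 0.36 (adjusted p = 0.00505) and 0.40 (adjusted p = 0.0026). Of 13 markers of mature neurons, Omp among them, 2 were higher in odor pools and 1 in vehicle pools, and 0 were lower in either. Their median difference was 0.14 in odor and 0.17 in vehicle pools. Setting array medians equal called 13098 of all 22206 probe sets higher in odor pools and 13003 in vehicle pools. Other cells were unevenly split by the sort. All 6 neutrophil markers were lower in GFP+ cells. The log2 of their summed linear signal, in which the strongest markers weigh most, was 9.94 to 12.1 in odor GFP+ and 18.3 to 19.2 in odor GFP- cells. It was 9.85 to 11.2 in vehicle GFP+ and 18.8 to 19.2 in vehicle GFP- cells. Of 7 immature neuron markers 6 were lower in both sorts. The log2 of the summed linear signal of all 7 was 15.9 to 16.1 in odor GFP+ and 16.2 to 16.6 in odor GFP- cells. It was 15.9 to 16.2 in vehicle GFP+ and 16.3 to 16.7 in vehicle GFP- cells. All 4 measured markers of globose basal cells and of division were lower too, and Mki67, a proliferation marker, differed by -5.73 in both sorts. All 4 microvillar cell markers were lower in both sorts, and 3 of 5 measured macrophage markers were lower in each. The 6 sustentacular cell markers were less clearly split, with 3 lower in odor and 2 in vehicle pools. Of these, Cyp2g1 passed in neither (adjusted p = 0.0922 and 0.149 from limma). The part of these cells in the receptor differences below was not tested. In such bulk samples, fewer cells with a receptor and less of its RNA per cell cannot be told apart.

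Most of the cluster was split by the sort, in both directions and alike with and without the odor. In the odor pools 19 of 58 members were higher and 23 lower in GFP+ cells, where 11.3% of all probe sets were higher and 11.9% lower. In the vehicle pools 18 were higher and 23 lower, where 9.34% of all probe sets were higher and 11.8% lower. Among all odorant receptors, 36.7% were higher and 27.2% lower in the odor pools, and 36.9% were higher and 24.4% lower in the vehicle pools. The members' median difference was near 0 (0.03 in odor and -0.02 in vehicle pools), beside 0.26 for all odorant receptors in both sorts. Their median size regardless of sign was 1.91 in odor and 1.88 in vehicle pools, beside 1.16 and 1.14 for all receptors and 0.27 and 0.25 for all probe sets. With array medians set equal, a scaling that moved the median of all probe sets by 0.33 in odor and 0.35 in vehicle pools, the split was 23 higher and 23 lower in odor pools and 25 higher and 21 lower in vehicle pools. That scaling called 13098 of all 22206 probe sets higher and 2009 lower in odor pools. In vehicle pools it called 13003 higher and 2008 lower, so the added higher calls among members go with a shift of all probe sets. Under that scaling Olfr1423, Olfr1462, Olfr1465 and Olfr1487 became higher calls in odor pools. In vehicle pools Olfr1423, Olfr1441, Olfr1453, Olfr1459, Olfr1466, Olfr1474 and Olfr1505 became higher calls, and Olfr1436 and Olfr1471 were no longer lower. Leaving out vehicle GFP+ replicate 2, the vehicle pools gave 20 higher and 22 lower.

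**Figure D1:**
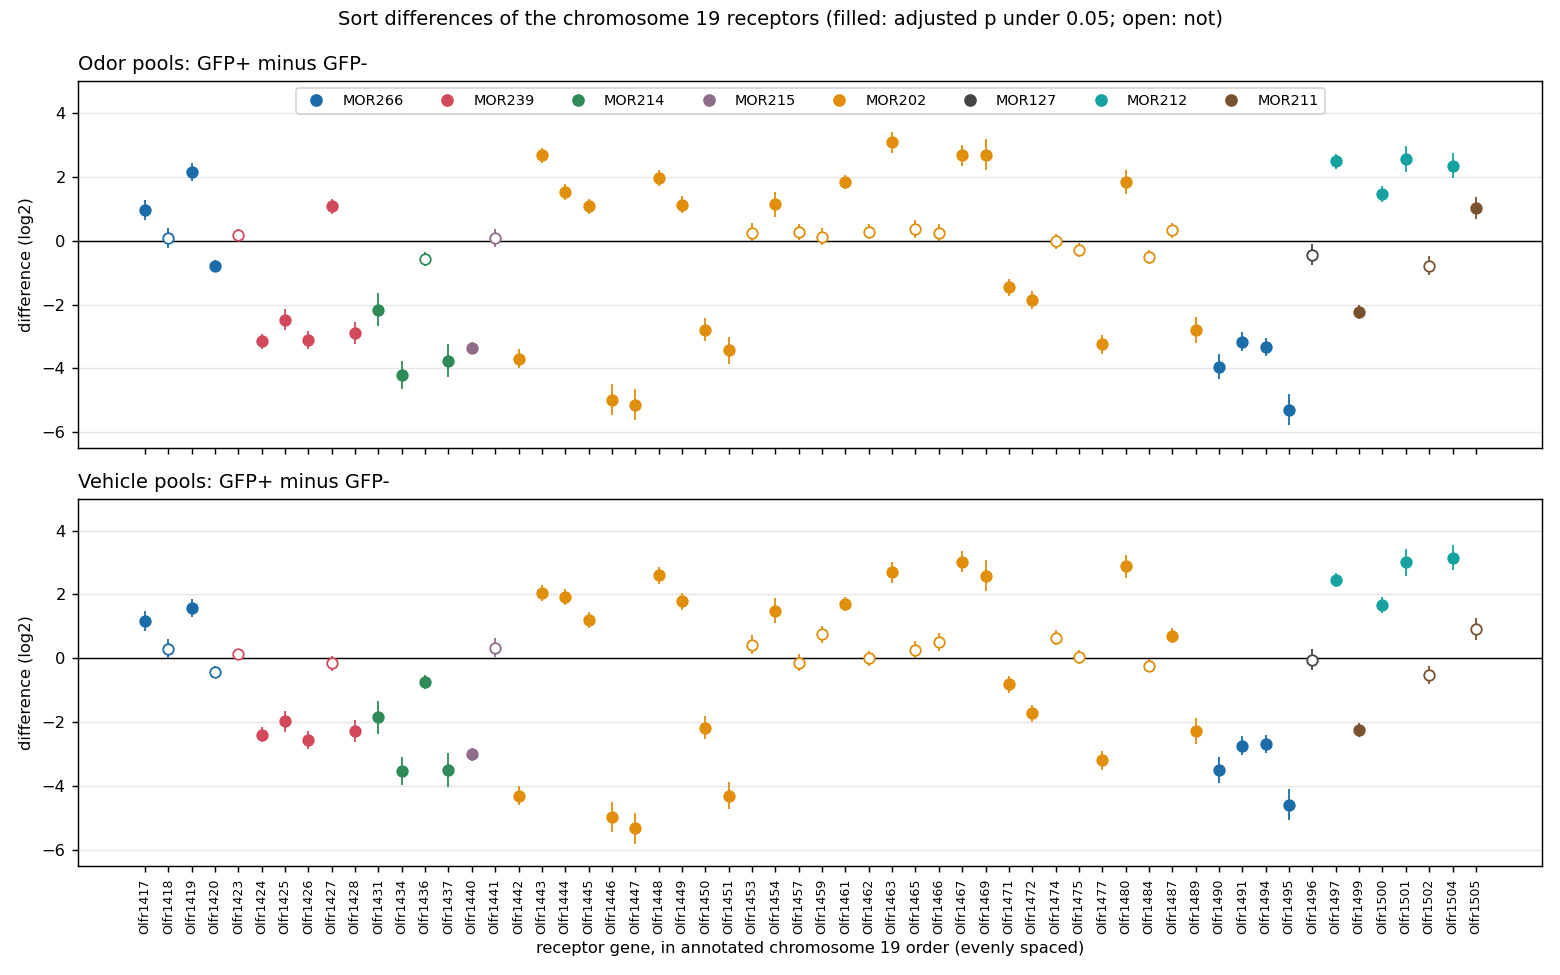
Fitted GFP+ minus GFP- difference on the log2 scale (points, bars ± SE) for the 58 receptors in annotated order along chromosome 19, evenly spaced, odor pools above and vehicle pools below, coloured by MOR family. Filled points passed the threshold and open points did not; both panels run from about -5.3 to about 3.1, with high and low members side by side in the middle of the cluster.

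The odor and vehicle sorts share no array, although a common estimate of the spread entered both tests. In both sorts, 17 members were higher and 22 were lower, 14 passed in neither, and 0 passed in opposite directions. Each sort alone passed 63.9% of all receptors in odor and 61.4% in vehicle pools, and 23.3% and 21.1% of all probe sets. Across the 58 members the fitted differences of the odor and vehicle sorts correlated with r = 0.982, a description over probe sets of a shared array design. Neither the counts over both sorts nor r were worked out for all receptors. They are thus not shown to be particular to this cluster. GFP+ signal exceeded GFP- signal in all 8 pools for 18 members and in none for 24, where 12.3% and 12.5% of all probe sets did so. All 8 pools went the same way for 72.4% of members, 60.6% of all receptors and 24.8% of all probe sets. In each sort all 23 lower members had GFP+ values that did not overlap the GFP- values, as did 12.3% of all probe sets in odor pools and 12% in vehicle pools. Of the higher members 16 of 19 in odor pools and 15 of 18 in vehicle pools did not overlap, beside 14.4% and 11.7% of all probe sets. These members were picked by a test on the same values, so their lack of overlap adds no support to the calls. The shares are over all probe sets, whether or not they passed.

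The largest differences were those of Olfr1447, Olfr1446 and Olfr1495, all lower in GFP+ cells. Olfr1447, of family MOR202, read 9.56, 8.12, 7.93 and 6.61 in odor GFP+ cells, against 13.68, 13.12, 12.91 and 13.05 in odor GFP- cells. In the vehicle pools it read 8.40, 6.30, 7.37 and 7.53 in GFP+ cells, against 13.09, 13.00, 12.65 and 12.14 in GFP- cells. No GFP+ array came near a GFP- array. The difference was -5.14 ± 0.48 in odor pools (35.2-fold lower, adjusted p = 3.40e-07) and -5.32 ± 0.48 in vehicle pools (adjusted p = 2.37e-07).

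Its neighbour Olfr1446 read 7.20, 5.13, 5.70 and 4.89 in odor GFP+ cells, against 11.22, 10.85, 10.33 and 10.41 in odor GFP- cells. In vehicle pools it read 6.64, 4.48, 5.98 and 5.24 in GFP+ cells, against 11.33, 10.59, 10.29 and 10.04 in GFP- cells. Its mean in GFP+ cells lay under the negative control median of those arrays in both stimuli, so the sizes of -4.97 ± 0.48 and -4.98 ± 0.48 (adjusted p = 4.35e-07 and 4.46e-07) rest on a GFP+ level that the array does not tell from background. Olfr1495, of family MOR266 near the other end of the cluster, read 8.16, 7.36, 7.87 and 5.54 in odor GFP+ cells, against 12.50, 12.71, 12.20 and 12.69 in odor GFP- cells. In the vehicle pools it read 8.26, 8.23, 9.02 and 6.53 in GFP+ cells, against 12.64, 12.52, 12.64 and 12.61 in GFP- cells. Replicate 4 was the lowest GFP+ array for it under both stimuli. It differed by -5.29 ± 0.49 in odor pools (adjusted p = 2.66e-07) and -4.59 ± 0.49 in vehicle pools (adjusted p = 1.46e-06).

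**Figure D2:**
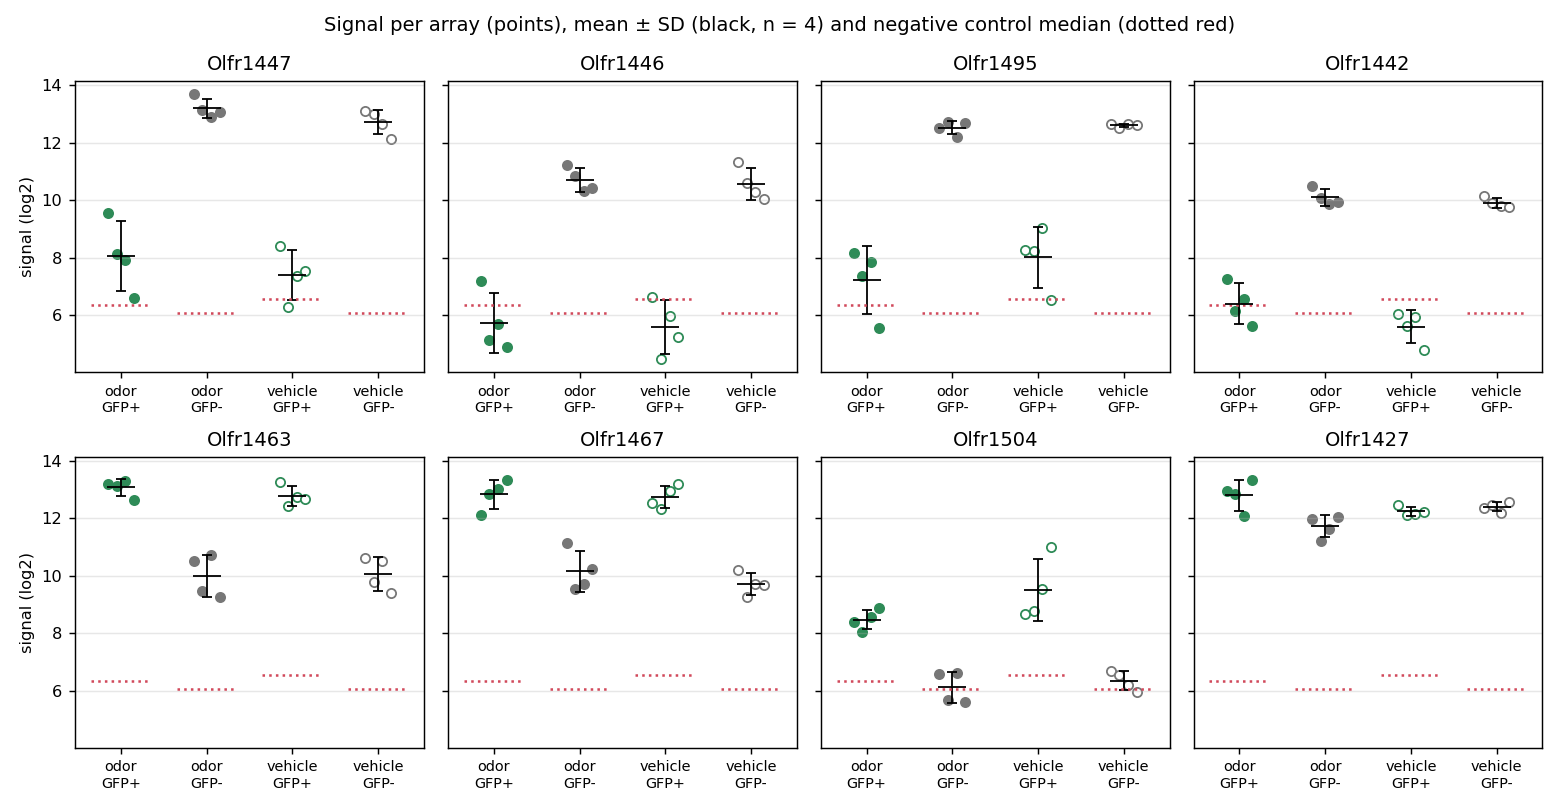
Log2 signal on each array for 8 members (points, 4 per group), with the mean ± SD in black and the negative control median of each group as a dotted red line; groups run from odor GFP+ and odor GFP- to vehicle GFP+ and vehicle GFP-. The first 4 members are lower in GFP+ cells, the next 3 are higher, and the fractions of Olfr1427 do not overlap in odor pools and overlap in vehicle pools.

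The other members in the lowest ranks were Olfr1442 and Olfr1451 of MOR202, Olfr1434 and Olfr1437 of MOR214, and Olfr1490 of MOR266. Olfr1442 averaged 6.40 ± 0.70 in odor GFP+ and 10.10 ± 0.29 in odor GFP- cells, and 5.60 ± 0.56 in vehicle GFP+ and 9.90 ± 0.16 in vehicle GFP- cells (SD, n = 4 each). Its differences were -3.70 ± 0.30 in odor pools and -4.30 ± 0.30 in vehicle pools. Olfr1451 differed by -3.42 ± 0.42 and -4.30 ± 0.42, in the same order. The spread of these receptors was wide in GFP+ cells, as for Olfr1451 in vehicle pools, which read 7.08, 5.44, 7.34 and 5.09. Olfr1490 differed by -3.94 ± 0.40 in odor and -3.49 ± 0.40 in vehicle pools. In odor pools 7 of the 23 lower members had a GFP+ mean at or under the negative control level, and in vehicle pools 10 of 23, so those sizes are limited by background.

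Family MOR214 was lower in GFP+ cells for 3 of 4 members in odor pools and 4 of 4 in vehicle pools. Olfr1434, whose upstream window is shown above, read 5.96, 6.83, 5.89 and 5.57 in odor GFP+ cells, against 10.35, 10.15, 10.10 and 10.48 in odor GFP- cells. It read 7.37, 5.75, 6.73 and 4.93 in vehicle GFP+ cells, against 10.26, 9.34, 8.84 and 10.49 in vehicle GFP- cells. GFP+ signal for it was at background under both stimuli, with differences of -4.21 ± 0.44 in odor pools (adjusted p = 1.27e-06) and -3.54 ± 0.44 in vehicle pools (adjusted p = 9.48e-06). Olfr1437, also shown above, differed by -3.75 ± 0.53 and -3.49 ± 0.53, and Olfr1431 by -2.16 ± 0.52 and -1.85 ± 0.52, the vehicle call being lost without GFP+ replicate 3 (adjusted p = 0.0548). Olfr1436 was weak on all arrays, with -0.57 ± 0.21 in odor pools (adjusted p = 0.0569) and -0.74 ± 0.21 in vehicle pools (adjusted p = 0.0154). With the pool of mice as a block its odor value passed (adjusted p = 0.0311), and its vehicle call was lost without GFP- replicate 4 (adjusted p = 0.0566), with array medians equal (adjusted p = 0.1) and with quantile normalization (adjusted p = 0.11). Olfr235, a MOR214 receptor that lies between members but has a number outside the range, was lower as well, with -2.52 ± 0.66 in odor pools (adjusted p = 0.00992) and -2.09 ± 0.66 in vehicle pools (adjusted p = 0.0302). Olfr262, also of MOR214, and Olfr76, of MOR215, passed in neither sort.

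Olfr1440, of family MOR215, is known as a mouse receptor for muscone, a musk odorant, and was picked here after its values were seen because its adjusted p was the smallest of the members. It read 9.11, 9.30, 8.75 and 8.81 in odor GFP+ cells, against 12.21, 12.57, 12.10 and 12.53 in odor GFP- cells. In the vehicle pools it read 9.74, 9.45, 9.06 and 9.21 in GFP+ cells, against 12.59, 12.68, 11.81 and 12.41 in GFP- cells. Both fractions were well above the negative control level, and the differences were -3.36 ± 0.20 in odor pools (adjusted p = 1.95e-09) and -3.01 ± 0.20 in vehicle pools (adjusted p = 6.66e-09). The other MOR215 member, Olfr1441, was under the negative control level in all 4 groups, and its differences of 0.09 ± 0.29 and 0.33 ± 0.29 did not pass.

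In family MOR239, Olfr1424, Olfr1425, Olfr1426 and Olfr1428 were lower in GFP+ cells of both sorts, with differences of -3.15 to -2.47 in odor pools and of -2.55 to -1.98 in vehicle pools. Olfr1428 averaged 11.17 ± 0.74 in odor GFP+ and 14.06 ± 0.25 in odor GFP- cells (SD, n = 4 each), a high signal in both fractions. Olfr1423, which had the highest mean signal of all members, did not pass, at 0.19 ± 0.17 in odor and 0.13 ± 0.17 in vehicle pools. Olfr1427 is taken up with the odor below.

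Family MOR266 lies in 2 blocks, at the start and near the far end of the cluster, and these gave different calls. Olfr1490, Olfr1491, Olfr1494 and Olfr1495 were lower in GFP+ cells of both sorts, with medians of -3.63 in odor and -3.11 in vehicle pools, and these 8 calls held under every scaling. Of Olfr1417, Olfr1418, Olfr1419 and Olfr1420 at the start of the cluster, 2 were higher in both sorts. Olfr1419 read 10.43, 10.05, 9.47 and 11.12 in odor GFP+ cells, against 8.18, 8.02, 8.15 and 8.13 in odor GFP- cells, and differed by 2.15 ± 0.28 (adjusted p = 1.63e-05). In vehicle pools it read 10.22, 9.92, 9.35 and 10.53 in GFP+ cells, against 8.58, 8.38, 8.62 and 8.11 in GFP- cells, and differed by 1.59 ± 0.28 (adjusted p = 0.000401). Every GFP+ array was above every GFP- array in both sorts. Olfr1417, the first gene of the cluster, differed by 0.95 ± 0.32 in odor pools (adjusted p = 0.0385) and 1.18 ± 0.32 in vehicle pools (adjusted p = 0.012). Its odor call was lost on leaving out any of 6 of the 8 odor arrays (adjusted p = 0.0757 to 0.111). Olfr1420 was lower in odor pools (-0.78 ± 0.19, adjusted p = 0.00608) and read -0.41 ± 0.19 in vehicle pools (adjusted p = 0.132, and 0.0188 with receptor medians set equal). Whether the MOR266 blocks differ was not tested.

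All 4 members of MOR212, at the far end of the cluster, were higher in GFP+ cells of both sorts under every scaling, with medians of 2.41 in odor and 2.73 in vehicle pools. Olfr1501 read 10.54, 10.59, 11.53 and 11.57 in odor GFP+ cells, against 9.37, 7.38, 9.02 and 8.22 in odor GFP- cells. In the vehicle pools it read 11.14, 11.00, 11.88 and 12.36 in GFP+ cells, against 8.56, 8.87, 9.08 and 7.86 in GFP- cells. The fractions did not overlap, and the differences were 2.56 ± 0.41 in odor pools (adjusted p = 0.00016) and 3.00 ± 0.41 in vehicle pools (adjusted p = 2.90e-05).

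Olfr1504 read 8.41, 8.05, 8.57 and 8.87 in odor GFP+ cells, against 6.59, 5.69, 6.61 and 5.63 in odor GFP- cells. In the vehicle pools it read 8.66, 8.79, 9.54 and 11.01 in GFP+ cells, against 6.68, 6.54, 6.22 and 5.95 in GFP- cells. The differences were 2.35 ± 0.40 in odor pools (adjusted p = 0.000272) and 3.15 ± 0.40 in vehicle pools (adjusted p = 1.13e-05), and the vehicle value was 2.65 without GFP+ replicate 4, the highest array. GFP- signal for it was close to the negative control level. Olfr1497 differed by 2.48 ± 0.23 and 2.46 ± 0.23, and Olfr1500 by 1.47 ± 0.25 and 1.67 ± 0.25. Among and after these genes lie the MOR211 members, which did not move as a group. Olfr1499 was lower in both sorts (-2.24 ± 0.23 in each), Olfr1502 passed in neither, and Olfr1505, the last gene of the cluster, was higher in odor pools (1.02 ± 0.34, adjusted p = 0.0372) and read 0.92 ± 0.34 in vehicle pools (adjusted p = 0.0624, and 0.0208 with the pool of mice as a block). The odor call was lost on leaving out any of 6 of the 8 odor arrays (adjusted p = 0.0506 to 0.107).

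MOR202, the largest family, went both ways, with 11 of 30 members higher and 9 lower in odor pools and 12 higher and 9 lower in vehicle pools. With the pool of mice as a block Olfr1459 (0.76 ± 0.27, adjusted p = 0.0573) and Olfr1474 (0.65 ± 0.23, adjusted p = 0.0511) also passed as higher in vehicle pools, with adjusted p of 0.00762 and 0.0168. Olfr1463 was the highest of the cluster in odor pools. It read 13.21, 13.14, 13.30 and 12.65 in odor GFP+ cells, against 10.53, 9.47, 10.72 and 9.25 in odor GFP- cells. In vehicle pools it read 13.25, 12.42, 12.75 and 12.67 in GFP+ cells, against 10.62, 9.77, 10.51 and 9.40 in GFP- cells. Replicates 2 and 4 were the low GFP- arrays under both stimuli, and the differences were 3.08 ± 0.33 in odor pools (8.49-fold, adjusted p = 1.43e-06) and 2.70 ± 0.33 in vehicle pools (6.49-fold, adjusted p = 6.77e-06).

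Olfr1467 read 12.13, 12.86, 13.01 and 13.34 in odor GFP+ cells, against 11.14, 9.55, 9.73 and 10.25 in odor GFP- cells. In vehicle pools it read 12.54, 12.33, 12.95 and 13.19 in GFP+ cells, against 10.20, 9.27, 9.71 and 9.70 in GFP- cells. It was higher by 2.67 ± 0.32 in odor and 3.03 ± 0.32 in vehicle pools (adjusted p = 6.51e-06 and 1.52e-06), with no overlap. Olfr1469 was higher by 2.69 ± 0.48 and 2.59 ± 0.48, Olfr1443 by 2.67 ± 0.24 and 2.04 ± 0.24, and Olfr1448 by 1.96 ± 0.26 and 2.60 ± 0.26. Olfr1480 was higher by 1.84 ± 0.37 in odor pools and 2.88 ± 0.37 in vehicle pools.

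Within MOR202 opposite calls lay next to each other. In vehicle pools Olfr1442 was lower, Olfr1443, Olfr1444 and Olfr1445 were higher, Olfr1446 and Olfr1447 lower, Olfr1448 and Olfr1449 higher, and Olfr1450 and Olfr1451 lower. These 10 genes had the same calls in odor pools. Over the 57 pairs of neighbouring members, both passed in 29 pairs of the odor sort, 18 in the same direction and 11 in opposite directions, and in 28 pairs of the vehicle sort, 19 in the same direction and 9 in opposite directions. The differences of neighbours correlated with r = 0.242 in odor and 0.214 in vehicle pools, a description over 57 pairs that share genes. A run of 5 lower members, from Olfr1489 to Olfr1495, joined a MOR202 gene to the MOR266 block in both sorts.

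The levels of the members spanned most of the array's range. Group means had medians of 8.79 in odor GFP+, 9.78 in odor GFP-, 9.25 in vehicle GFP+ and 9.67 in vehicle GFP- cells. Olfr1423, Olfr1428, Olfr1420 and Olfr1484 had the highest mean signals, and Olfr1441, Olfr1457, Olfr1465 and Olfr1453 the lowest. At or under the negative control level were 13 members in odor GFP+, 7 in odor GFP-, 16 in vehicle GFP+ and 8 in vehicle GFP- cells, with 6 members there in all 4 groups and 40 in none. Levels of different probe sets depend on probe response, so this order says little of transcript number.

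Summed on the linear scale, the 58 probe sets gave a smaller part of all receptor signal in GFP+ cells. The share was 2.57%, 2.87%, 2.58% and 3.15% in odor GFP+ cells, against 4.96%, 4.97%, 4.47% and 5.43% in odor GFP- cells. It was 2.90%, 2.94%, 2.76% and 3.15% in vehicle GFP+ cells, against 5.08%, 4.97%, 4.44% and 4.34% in vehicle GFP- cells. The fractions did not overlap, and the stimuli did, in each fraction. No test was run on this sum, in which the probe sets with the highest signal weigh most. The members' median difference was 0.03 in odor and -0.02 in vehicle pools, so the share does not stand for a typical member.

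**Figure D3:**
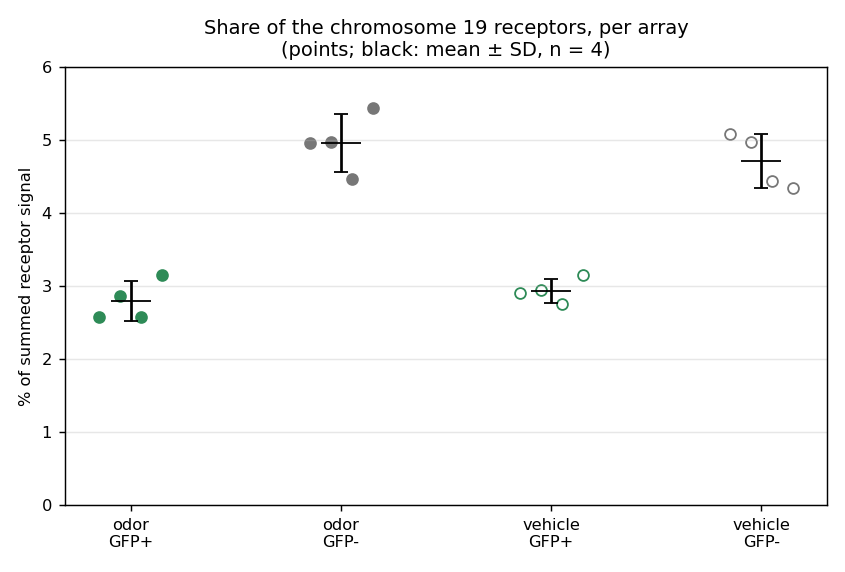
Summed linear signal of the 58 probe sets as a percent of the summed signal of all 1080 odorant receptor probe sets, per array (points) with the mean ± SD (black, n = 4 per group). The GFP+ arrays lie between 2.57% and 3.15% and the GFP- arrays between 4.34% and 5.43%.

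Counts for 3 other ranges of receptor numbers stand beside these, without a test of the difference. Among 244 receptors numbered Olfr983 to Olfr1318, 110 were higher and 68 lower in odor pools and 101 higher and 63 lower in vehicle pools. Among 104 receptors numbered Olfr828 to Olfr982, 42 were higher and 24 lower in odor pools and 44 higher and 24 lower in vehicle pools. Among 54 numbered Olfr763 to Olfr827, 2 were higher and 26 lower in odor pools and 4 higher and 17 lower in vehicle pools. In odor pools 73.0%, 63.5% and 51.9% of these ranges passed, in the order given, beside 72.4% of the chromosome 19 members. That share was 63.9% for all receptors and 23.3% for all probe sets. In vehicle pools 67.2%, 65.4% and 38.9% passed, beside 70.7% of the members, 61.4% of all receptors and 21.1% of all probe sets. The median sizes in odor pools were 1.41 for Olfr983 to Olfr1318, 1.05 for Olfr828 to Olfr982 and 0.73 for Olfr763 to Olfr827, beside 1.91 for the chromosome 19 members.

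The odor changed no member past the threshold. Comparing odor with vehicle in GFP+ cells, limma passed 0 of 58 members, with 3 at an unadjusted p under 0.05 (1587 of all 22206 probe sets), where 0.0766% of all probe sets were higher and 0% lower. The odor and vehicle values of GFP+ cells did not overlap for 0 of 58 members in either direction, where 1.75% of all probe sets were wholly higher with odor and 1.1% wholly lower. In GFP- cells it passed 0 of 58, with 2 at an unadjusted p under 0.05 (580 of all 22206), where 0.00901% of all probe sets were higher and 0.0405% lower. The GFP- values did not overlap for 1 member, Olfr1427, lower with odor, where 1.37% of all probe sets were wholly lower and 1.24% wholly higher. For the gain, the GFP+ minus GFP- difference of odor pools less that of vehicle pools, it passed 0 of 58, with 2 at an unadjusted p under 0.05 (1033 of all 22206), where 0.063% of all probe sets were higher and 0% lower. Among all odorant receptors 9 were higher in GFP+ cells with odor, 9 lower in GFP- cells and 14 had a gain. The members' gains ran from -1.04 to 1.24 with a median of -0.28, beside -0.17 for all receptors, and 18 of 58 were positive. These medians moved with the scaling. They were -0.11 for members and -0.008 for all receptors with receptor medians set equal, and -0.30 and -0.20 with array medians set equal. The 95% confidence interval of a member's gain, not adjusted for the number of tests, reached a median of 0.86 to either side. For many members a gain of that size could thus not be told from 0.

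**Figure D4:**
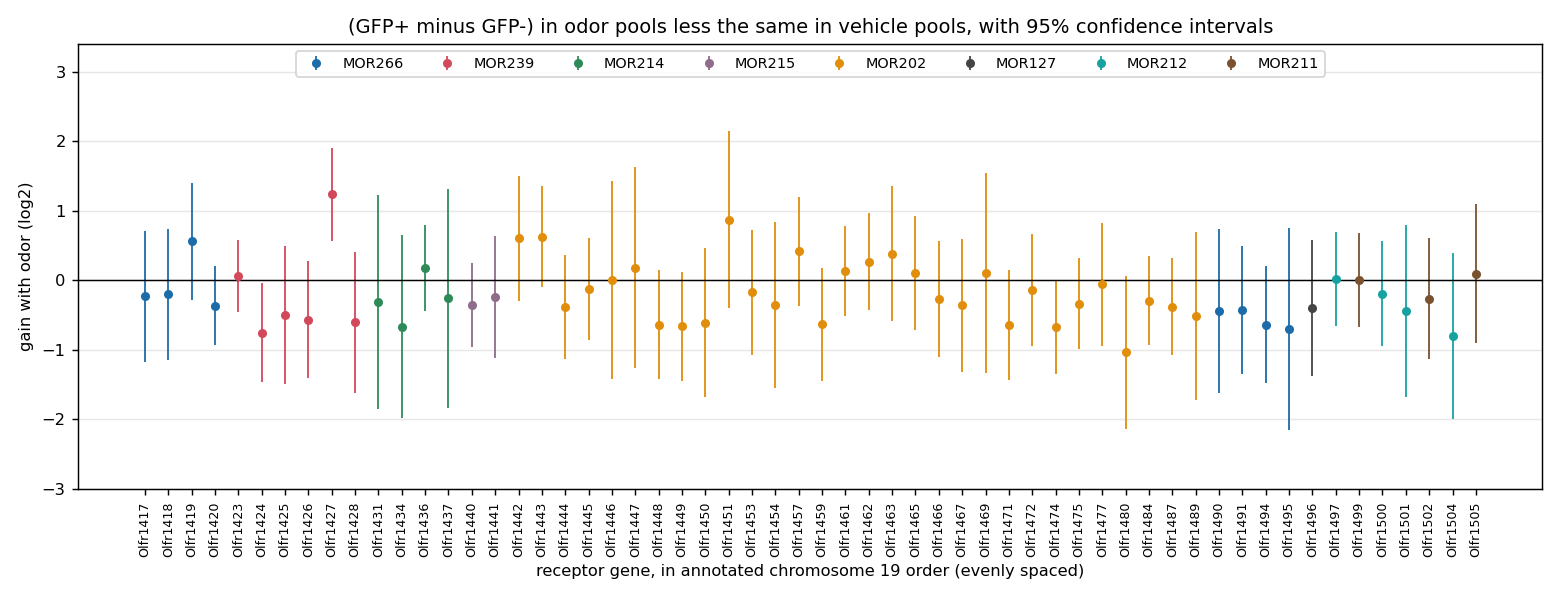
Gain with odor for each of the 58 receptors (points, log2 scale) with 95% confidence intervals, in annotated order along chromosome 19 and coloured by MOR family. Points run from -1.04 to 1.24, and Olfr1427 stands highest.

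Olfr1427 came closest. It read 12.96, 12.83, 12.07 and 13.34 in odor GFP+ cells, against 12.46, 12.13, 12.15 and 12.22 in vehicle GFP+ cells. In GFP- cells it read 11.99, 11.23, 11.63 and 12.05 with odor, against 12.37, 12.47, 12.20 and 12.57 with vehicle. Odor GFP+ replicate 3 was the exception among the GFP+ arrays, lying under all vehicle GFP+ arrays, while the GFP- arrays did not overlap. GFP+ signal exceeded GFP- signal by 0.96, 1.60, 0.44 and 1.29 in the 4 odor pools, against 0.09, -0.34, -0.04 and -0.36 in the 4 vehicle pools. Olfr1427 was thus higher in GFP+ cells of odor pools (1.07 ± 0.22, adjusted p = 0.00186) and did not pass in vehicle pools (-0.16 ± 0.22, adjusted p = 0.653). The gain was 1.24 ± 0.32, with a 95% confidence interval of 0.57 to 1.91, an unadjusted p of 0.00121 and an adjusted p of 0.496 from limma. Without odor GFP+ replicate 3 it was 1.48 with an adjusted p of 0.0441, and over all 21 alternatives the adjusted p ran from 0.0441 to 0.918. Its change with odor was 0.56 ± 0.22 in GFP+ cells (adjusted p = 0.638) and -0.68 ± 0.22 in GFP- cells (adjusted p = 1 after rounding).

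The other members with the smallest p for the gain were Olfr1424 (-0.75 ± 0.34), Olfr1474 (-0.67 ± 0.32), Olfr1480 (-1.04 ± 0.52) and Olfr1443 (0.63 ± 0.34), each with an adjusted p of 0.999. Olfr1480 read 9.03, 9.44, 8.39 and 8.56 in odor GFP- cells, against 7.70, 8.50, 7.30 and 7.74 in vehicle GFP- cells. Only vehicle replicate 2 reached the odor values there, and the difference of 1.05 ± 0.37 had an unadjusted p of 0.0116. In GFP+ cells Olfr1504 differed with odor by -1.02 ± 0.40 (adjusted p = 0.627), which was -0.52 without vehicle GFP+ replicate 4. Olfr1442 differed by 0.80 ± 0.30 (adjusted p = 0.612), Olfr1426 by -0.57 ± 0.28 and Olfr1457 by 0.52 ± 0.26, the last at background level. In GFP- cells Olfr1424 differed by 0.44 ± 0.24, Olfr1443 by -0.43 ± 0.24 and Olfr1475, also at background, by 0.39 ± 0.22.

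Of 17 genes listed for the expression of odorant receptors, 0 passed with the odor in either fraction or in the gain. In odor pools 0 were higher and 3 lower in GFP+ cells, and in vehicle pools 1 was higher and 2 lower, where 23.3% of all probe sets passed in odor pools and 21.1% in vehicle pools. Lbr, the lamin B receptor whose loss accompanies the gathering of receptor genes in the neuronal nucleus, differed by -1.89 ± 0.23 in both sorts and passed under every scaling. Neutrophil and division markers were lower in GFP+ cells as well. The part of such cells in the differences of Lbr and the other listed genes was not tested. Cbx5, a heterochromatin protein, was lower, with -0.62 ± 0.16 in odor pools (adjusted p = 0.00796) and -0.45 ± 0.16 in vehicle pools (adjusted p = 0.0487). Kdm1a, a histone demethylase needed for receptor choice, differed by -0.35 ± 0.11 in odor pools (adjusted p = 0.0336) and -0.27 ± 0.11 in vehicle pools (adjusted p = 0.103). The calls of both changed with the scaling. Over the 3 other scalings the adjusted p of Cbx5 ran from 0.0196 to 0.109 in odor pools and from 0.0484 to 0.562 in vehicle pools. That of Kdm1a ran from 0.0295 to 0.86 in odor pools and from 0.0255 to 0.541 in vehicle pools, where it read 0.08 with array medians set equal. Reep1, of a family of receptor transport proteins, was higher by 0.54 ± 0.16 in vehicle pools (adjusted p = 0.0222, and 0.442 with receptor medians set equal), with 0.31 ± 0.16 in odor pools (adjusted p = 0.182, and 0.0053 with array medians set equal). Lhx2 (-0.08 ± 0.12 and -0.16 ± 0.12) and Ldb1 (-0.09 ± 0.11 and -0.17 ± 0.11), which bind enhancers of receptor clusters, did not pass in odor or vehicle pools, and their signs turned with array medians set equal.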

How the data were processed

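RNA of 16 sorted samples was measured on Clariom S mouse arrays, after labelling of 50 to 100 ng of total RNA as biotinylated cRNA, per the labels' protocols. Mice stayed in air chambers for 40 h, and after 26 h the stimulus was given for 10 s every 20 min. The deposited values are log2 signals of 28846 features, made with Affymetrix Expression Console per the submitters' processing notes; no version, summarization or normalization method is stated there. The 6640 control entries were left out of tests, and 5222 negative controls served as the level of nonspecific signal. No scaling or filter was added.

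A model of 4 group means over the 16 arrays (limma 3.58.1, R 4.3.3) gave 5 comparisons, tested two-sided and adjusted by Benjamini-Hochberg over 22206 probe sets. The fit was checked on simulated data. The number of arrays limits the precision. GFP+ and GFP- arrays of a pool come from the same mice. Their deviations from the group means correlated with r from 0.0119 to 0.224, and 5 of 8 pairs were over 0.1. Arrays of the same replicate number correlated with r from 0.186 to 0.290 in GFP- cells, where 4 of 4 pairs were over 0.1. In GFP+ cells such arrays correlated with r from 0.0311 to 0.256, and 2 of 4 pairs were over 0.1. The main fit took neither pairing into account. Blocks for both were alternatives, beside other scalings, a filter, a minimum difference and leaving out each array.

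Members and lists were chosen with earlier results of these data known. Named members were the 8 highest and 8 lowest per sort among those past the threshold without overlap, the 5 smallest p of each odor comparison, the 4 highest and 4 lowest signals and the ends of the cluster. Members outside this rule illustrate a family, an upstream window or a neighbour. The probe annotation gave names, with 19572 probe sets carrying 1 symbol, 0 several and 2634 none, and RefSeq tables gave families, order and sequence. Protein identity between members was not analysed here, so near copies whose probes might share signal were not looked for.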

Additional observations from a re-analysis of the deposited data

Results flagged for a closer look

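Among 33 named members and the array-wide medians, 144 groups of 4 arrays were examined for an array far from the other 3, and 6 were found; chance alone gives about 1 in 20 groups. In odor GFP- cells replicate 4 read 3.69 for Olfr1457, against 4.72 to 4.83 on the others, all at background, and 9.96 for Olfr1424, against 10.64 to 10.78. In vehicle GFP- cells Olfr1424 read 10.87 in replicate 1, against 9.74 to 9.90, and Olfr1423 read 13.37 in replicate 3, against 13.70 to 13.77. On the vehicle GFP+ array of replicate 2 the members' median was 8.65, against 9.13 to 9.22, and the negative control median was 7.28, against 6.22 to 6.38.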

How the results depend on the processing

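The counts of members past the threshold in the odor and vehicle sorts were 42 and 41. They were 46 and 46 with array medians equal, 44 and 41 with receptor medians equal, 42 and 43 with quantile normalization, 42 and 43 for probe sets above the negative control level, 40 and 38 with a minimum difference of 1, and 39 to 44 and 40 to 42 on leaving out an array. With array medians equal, 13098 of all 22206 probe sets were higher in the odor sort and 13003 in the vehicle sort. With the pool of mice as a replicate block the members' counts were 43 and 44, and the gain had 0. With the replicate number as a block, odor against vehicle had 0 in either fraction. Of the odor sort's calls 16 of 19 higher and 23 of 23 lower held under every alternative that tested them, and of the vehicle sort's 17 of 18 and 20 of 23. The odor comparisons stayed at 0 under all alternatives except the gain, which had 0 to 1 on leaving out an array; the 1 is Olfr1427 (1.48) without odor GFP+ replicate 3. Calls lost under some alternative were those of Olfr1417, Olfr1454 and Olfr1505 in the odor sort and of Olfr1487, Olfr1431, Olfr1436 and Olfr1471 in the vehicle sort. The members' median sort difference took either sign with the scaling, from -0.03 to 0.36 in odor and -0.25 to 0.33 in vehicle pools. Where GFP+ signal is at background, sizes are limited.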

Other observations

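Some members moved with the replicate number in all 4 groups, although odor and vehicle pools of a number are different mice. Olfr1418, Olfr1424, Olfr1426, Olfr1442, Olfr1446 and Olfr1447 each had their highest array in replicate 1 of every group, 6 of 58 members where 5.37% of odorant receptors and 1.63% of all probe sets did so. Olfr1431, Olfr1437 and Olfr1440 had their lowest array in replicate 3 of every group, 3 of 58 where 2.04% of receptors and 0.847% of all probe sets did so. For Olfr1431, replicate 3 read 6.78 in odor GFP+, 10.00 in odor GFP-, 6.95 in vehicle GFP+ and 9.73 in vehicle GFP- cells, against group means of 8.41, 10.58, 8.47 and 10.32 that include it. These genes were picked after their values were seen, and the cause was not tested.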
